A study of Mus musculus with 3 samples.

Results

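The genes described here are 53 ligands through which immune cells signal to each other, the secreted cytokines and chemokines, chosen by symbol from the 55536 genes of the deposited tables. All 53 symbols were found. They were measured by polyA RNA-seq of mouse regulatory T cells (Tregs), CD4 T cells that depend on Foxp3 and hold other immune cells in check, taken at 12 weeks of age and labelled as having experienced inflammation. The labels give 3 libraries, named technical replicates 1 to 3 of 1 biological replicate from 1 donor, so there was 1 group and no control condition. The strain, any allele carried, the inflammatory treatment, the sorting gate and any pooling of animals are not stated in the labels. Libraries 1 to 3 held 35652707, 31665170 and 37810591 expected counts, that is, reads assigned to genes by a model that can split a read between genes.

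Cytokines and chemokines are small proteins released by a cell that act through receptors on its own surface or on other cells. Many of their genes are switched on within hours of T cell stimulation and their mRNAs are short-lived, because AU-rich elements behind the stop codon recruit decay factors. Tregs are best known for the suppressive cytokines interleukin 10 and interleukin 35, the latter a pair of the chains encoded by Ebi3 and Il12a, and they can also make some cytokines of the helper T cells whose programs they share.

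All 10 Treg identity genes (Foxp3, Il2ra, Ctla4, Ikzf2, Tnfrsf18, Tnfrsf4, Izumo1r, Nrp1, Cd4 and Cd3e) had at least 1 TPM (transcript abundance, a read count scaled for gene length and library size) in all 3 libraries. Markers of other cells were scarce. The 12 myeloid markers summed to 5.91, 2.54 and 7.95 TPM in libraries 1 to 3 with Cd14 at 0, the 8 dendritic markers to 8.47, 5.45 and 2.76 TPM with Cd209a at 0, the 8 mast cell and basophil markers to 1.75, 0.71 and 2.08 TPM with Mcpt4, Fcer1a and Cma1 at 0, and the 8 natural killer markers to 2.53, 3.01 and 3.30 TPM. The 8 B cell markers summed to 57.6, 66.4 and 57.9 TPM, and the CD8 genes Cd8a and Cd8b1 to 19.4, 26.5 and 16.9 TPM. Among the 12 epithelial and stromal markers, Pecam1 at 74.0 TPM and Epcam at 32.1 TPM were the 2 detected. Library 3 stood apart by its salivary gland transcripts, 57277 TPM against 5.12 and 11.3 TPM in libraries 1 and 2, and these lower every other TPM in that library. In such bulk samples, fewer cells of a type and less RNA per cell cannot be told apart.

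Of the 53 ligand genes, 17 were detected, meaning at least 1 TPM in all 3 libraries. Over all protein-coding genes 47.7% met the same rule, so a smaller share of the ligands was detected than of coding genes at large. A further 9 ligands had 0 counts in all 3 libraries, against 11.3% of coding genes. A count of 0 allows 3 counts per library, which for these genes is 0.0913 to 0.332 TPM. The deposited upper TPM bounds, whose level is not stated, were higher for some, as for Il24 with 0.645 TPM in library 2. Another 5 had reads but at most 3 counts in any library, and 22 lay between. The median ligand had 0.340 TPM and the median coding gene 1.04 TPM. Gene TPM was concentrated in few genes: Mif, Il16 and Flt3l took 74.6%, 71.7% and 72.5% of the summed ligand TPM in libraries 1 to 3. That sum was 1319, 1419 and 1245 TPM. It includes transcripts not annotated as coding, which held most of the Flt3l signal. In the order of mean TPM, neighbours did not overlap over the 3 libraries from Mif through Il16, Flt3l, Ccl5, Ebi3 and Csf1 to Osm, between Cxcl10 and Ccl25, and between Il18 and Lif. All other neighbours among the 17 overlapped. Just outside the detection rule were Cxcl2 and Xcl1, with means of 1.93 and 1.60 TPM.

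**Figure D1:**
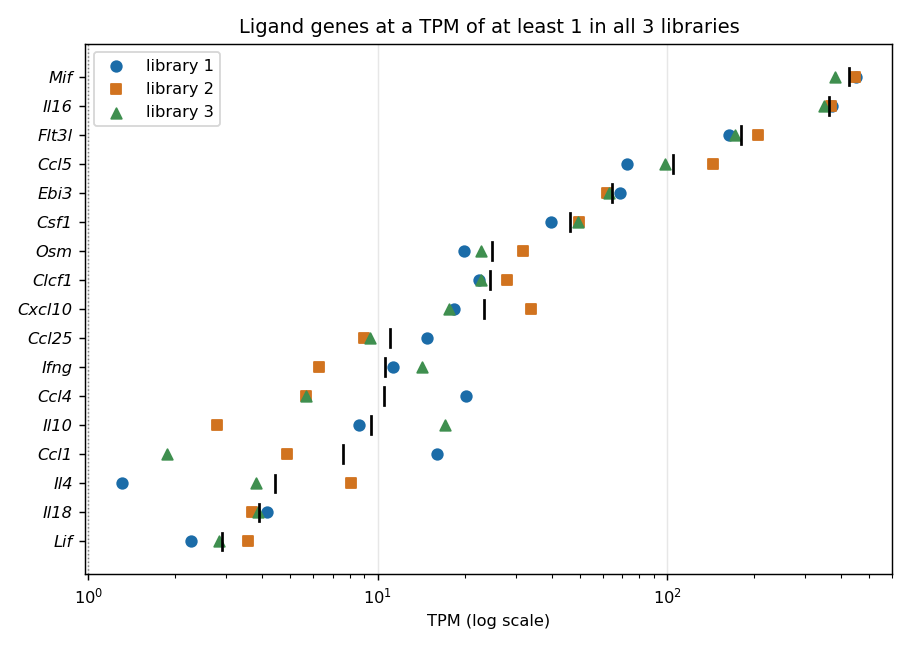
Level of each of the 17 detected ligand genes in TPM on a log axis, ordered by mean, with 1 point for each of the 3 libraries. The levels run from Mif at a mean of 425 TPM to Lif at 2.89 TPM, and the points of Il10, Ccl1, Il4 and Ccl4 are spread most widely.

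Regulatory sequences of these genes are shown first, because they differ between ligands in ways that can be set beside the levels below. The last 100 bases before the transcription start were read from the RefSeq promoter table (assembly GRCm38.p6), which had 45 promoters for 38 of the 53 genes. Capitals mark the TATA box letters TATAAA where they occur on the gene's own strand within 50 bases of the start. Ifng, Il13 and Il1b stand for inducible cytokines with such a box, and Mif and Il16 are the 2 most abundant ligands, without it.
Mif, chr10:75860278-75860377, minus strand: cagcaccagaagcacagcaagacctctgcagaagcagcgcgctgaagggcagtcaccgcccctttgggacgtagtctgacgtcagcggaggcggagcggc
Il16, chr7:83655496-83655595, minus strand: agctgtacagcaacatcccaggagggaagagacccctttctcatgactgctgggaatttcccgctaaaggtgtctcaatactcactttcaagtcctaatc
Ifng, chr10:118440946-118441045, plus strand: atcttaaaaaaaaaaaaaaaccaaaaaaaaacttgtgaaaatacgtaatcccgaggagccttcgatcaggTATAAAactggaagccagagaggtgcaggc
Il13, chr11:53634703-53634802, minus strand: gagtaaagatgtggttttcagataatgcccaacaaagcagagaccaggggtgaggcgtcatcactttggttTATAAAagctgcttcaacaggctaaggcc
Il1b, chr2:129371140-129371239, minus strand: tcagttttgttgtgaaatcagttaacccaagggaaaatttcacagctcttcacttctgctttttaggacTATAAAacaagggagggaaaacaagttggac

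These exact letters stood in the last 50 bases of 9 of the 45 ligand promoters (20%) and of 2.63% of all 32851 promoters in the table. By level, they were in 2 of 16 promoters of detected ligands and in 7 of 29 promoters of ligands not detected. Promoters were classed by the level of their gene, not by use of that start. The 2 were those of Ifng and of the downstream Ccl25 start, whose transcripts summed to 1.15, 0 and 0.88 TPM. Within the whole 250 bases before the start and on both strands, 33.3% of ligand promoters and 12.4% of all promoters held TATAAA. A match is a description of the letters, not a measured site.

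The second sequence feature was the AU-rich pentamer ATTTA behind the stop codon, counted on the sense strand with overlaps in GENCODE M21 transcripts, using the longest such stretch of each gene. At least 3 copies were present in 32 of the 53 ligands (60.4%) and in 36.3% of 20627 coding genes. Stretches of 302 to 1017 bases, the middle range of the ligands, held at least 3 copies in 19 of 27 ligands and in 14.7% of coding genes. The windows of 30 bases richest in ATTTA (in capitals, on mm10) show the range from Csf2 and Cxcl2, which were low or absent here, to Il10, Ifng and Osm, which were detected.
Csf2, chr11:54247329-54247358, minus strand: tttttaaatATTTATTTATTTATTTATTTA
Cxcl2, chr5:90905327-90905356, plus strand: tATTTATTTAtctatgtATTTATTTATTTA
Il2, chr3:37121039-37121068, minus strand: tATTTATTTAaatATTTAactttaATTTAt
Ifng, chr10:118445333-118445362, plus strand: ctATTTAttaatATTTAaaactATTTAtat
Osm, chr11:4240963-4240992, plus strand: tATTTAtaatgtatATTTAatgttaatatt
Il10, chr1:131024474-131024503, plus strand: aatattataattttacagtATTTAttattt

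The number of ATTTA copies in each ligand can be set beside its level, with no test. By gene TPM the 4 most abundant, Mif, Il16, Flt3l and Ccl5, had 0 copies each, in stretches of 124, 1064, 424 and 199 bases. Ebi3, the fifth, had 1. The level of Mif is uncertain, as described below. The stretch counted need not lie in a gene's main transcript. For Il16 its transcript had 2.68, 2.19 and 3.54 TPM in libraries 1 to 3. For Flt3l it had 15.3, 16.1 and 15.8 TPM, and for Cxcl10, with 3 copies, 0, 0.47 and 0 TPM. Coding Flt3l transcripts summed to 45.5, 32.3 and 45.2 TPM, below Ebi3 in every library. Among less abundant detected ligands, Csf1 had 4 copies, Osm, Ifng and Il10 had 6 each, and Ccl25 and Ccl1 had 0. Ligands with few copies were also found below the detection rule: Ccl24 and the silent Ccl17 had 0 and the silent Il3 had 1. At least 3 copies were found in 7 of 17 detected ligands (41.2%) and 25 of 36 ligands not detected (69.4%), among them Cxcl2 with 11, Il6 with 10 and Csf2 with 9. The longer motif TATTTAT gave 47.1% and 69.4%, against 28.1% of all coding genes; it contains the pentamer, so the 2 counts are not independent. Since mature mRNA level is what the reads measure, how fast these mRNAs decay was not tested.

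**Figure D2:**
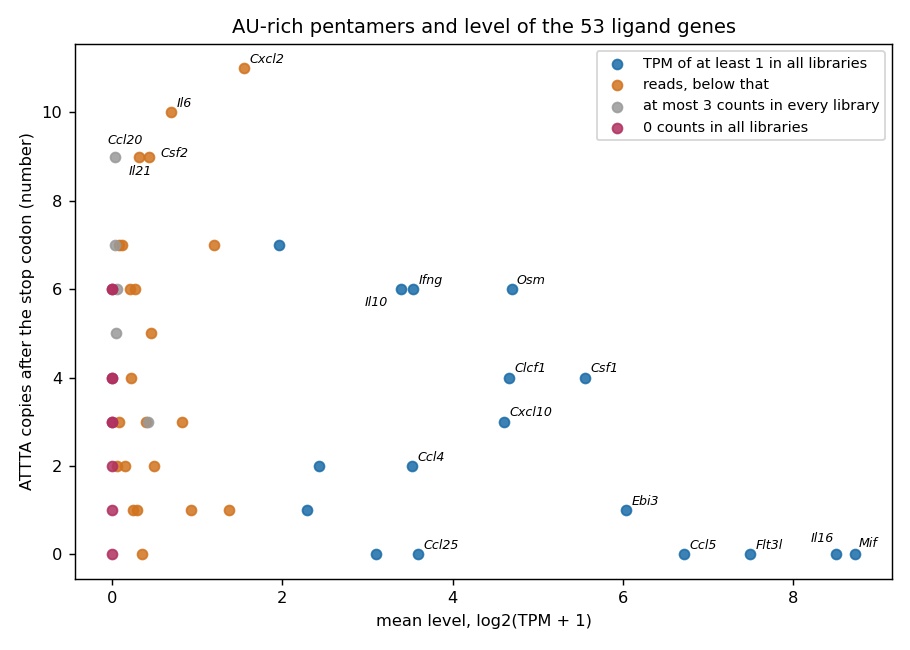
Number of ATTTA copies behind the stop codon against mean log2(TPM + 1) for the 53 ligand genes, 1 point per gene, coloured by detection class. Mif, Il16, Flt3l and Ccl5 lie at 0 copies on the right, and Cxcl2 at 11, Il6 at 10 and Csf2 at 9 lie on the left.

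Transcripts of most listed factors that act on cytokine mRNAs were present. The list is not limited to factors of AU-rich elements. Of its 13 genes, 12 were detected, against 47.7% of all coding genes. Zfp36, which encodes tristetraprolin and promotes decay of AU-rich mRNAs, had 157, 192 and 211 TPM, and its relatives Zfp36l2 and Zfp36l1 averaged 241 and 153 TPM. Hnrnpd, which encodes the AU-binding protein AUF1, averaged 322 TPM, Elavl1, whose product HuR stabilises such mRNAs, 179 TPM, and Arid5a, which encodes another stabilising factor, 101 TPM. Rc3h1, which encodes Roquin-1, averaged 11.6 TPM and Zc3h12c, a relative of the Regnase-1 gene, 1.83 TPM, the factor below 1 TPM in library 2.

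Ligands stored or released by unusual routes led the set. Mif encodes macrophage migration inhibitory factor, which leaves cells without a signal peptide, and had 449, 444 and 381 TPM (425 ± 37.8, SD, n = 3). Il16 encodes a precursor whose end is cut off by caspase 3 and attracts CD4 cells, and had 371, 368 and 349 TPM (363 ± 11.9). Library 3 was lowest for both in TPM and the libraries spread little. In counts scaled by library, which the gland transcripts lower less, Il16 was highest in library 3, with 24581, 24437 and 25041. Mif exceeded Il16 by 0.22 ± 0.08 on the log2(TPM + 1) scale in all 3 libraries, with a two-sided exact sign-flip permutation p of 0.25, the smallest that 3 libraries allow, and an adjusted p of 0.385. This order depends on the unit: in log2 counts scaled to library size with no length correction Mif was lower by a mean of -2.42, and in M4 counts per kilobase by -2.61. Whole-number counts on the older M4 annotation recorded 2.34% of the M21 expected counts of Mif, against a median of 43.9% over 13664 genes. Mif has many near-identical processed copies in the mouse genome, among which a counting method can split reads, so its level is uncertain. Spp1 (osteopontin, a secreted phosphoprotein with cytokine activity) had 24, 0 and 13 expected counts and was not detected.

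The Il16 signal came from the short form. Transcript Il16-203 took 95.2% ± 0.28 of the gene's TPM. Transcripts from the internal start downstream of the promoter printed above summed to 368.82, 365.44 and 345.63 TPM, and the 4 from upstream starts to 2.68, 2.22 and 3.54 TPM. The gene lies at chr7:83642825-83745726 on the minus strand and shares 1202 exon bases with Stard5 on the other strand, which had 32.2, 38.5 and 34.3 TPM. The labels do not say whether strand was used in counting, and without strand reads in a shared stretch cannot be assigned.

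Of the growth factors of the blood lineages, Flt3l had the highest gene TPM and ranked after Il16. It encodes the ligand that expands dendritic cell precursors and had 163, 206 and 172 TPM (180.3 ± 22.4), with library 2 highest. Only a minor share belonged to coding transcripts: 23.3% ± 6.60 of the gene's TPM, or 45.5, 32.3 and 45.2 TPM, so in coding transcripts library 2 was lowest. The leading transcript was Flt3l-213, annotated as a retained intron. Csf1, the macrophage growth factor, had 39.7, 49.6 and 49.2 TPM (46.2 ± 5.60), lowest in library 1. In coding transcripts Csf1 had 39.1, 49.6 and 49.2 TPM, above Flt3l in libraries 2 and 3 and below it in library 1. Il34, which binds the receptor of Csf1, had 2, 3 and 4 expected counts. Csf1 exceeded Il34 by 5.27 ± 0.22 and Csf2, the granulocyte-macrophage factor with 14, 0 and 4 counts, by 5.16 ± 0.62 on the log2(TPM + 1) scale (exact sign-flip p of 0.25 each). Csf3, the granulocyte factor, had 0 counts in all libraries.

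**Figure D3:**
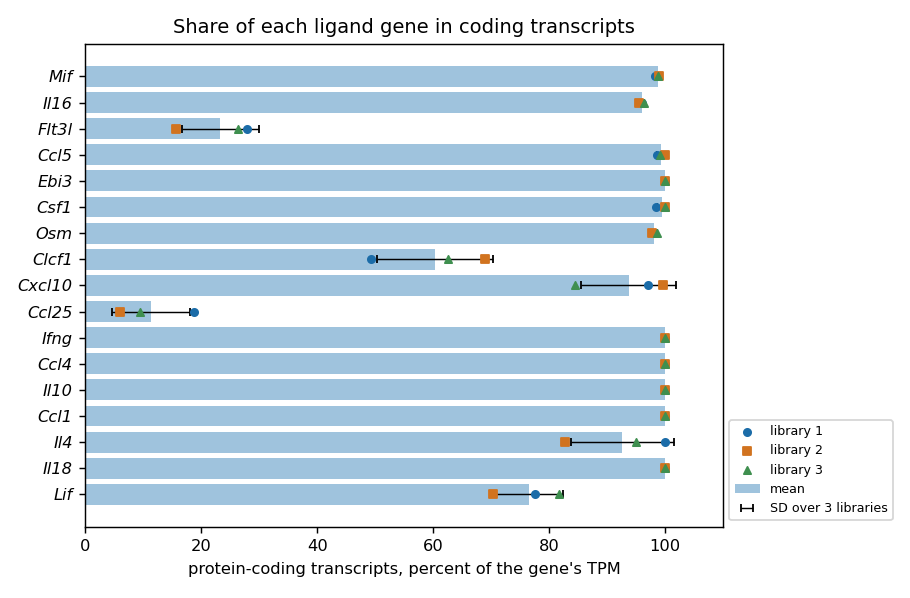
Share of each detected ligand gene's TPM that fell on protein-coding transcripts, in percent, with 1 point per library, a bar for the mean and a whisker for the SD over 3 libraries. Ccl25 at a mean of 11.3% and Flt3l at 23.3% lie far below the other genes, and Clcf1 follows at 60.2%.

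The chemokine genes were mostly low. Of 10 CC chemokines 4 were detected, and of 6 CXC and C chemokines 1 was. Ccl5, an attractant of T cells and monocytes, had 72.5, 144 and 98.6 TPM (105 ± 36.0). Ccl4, an inflammatory chemokine, had 20.25, 5.65 and 5.64 TPM, and library 1 alone was high. Ccl3, the gene next to Ccl4 at a distance of 13229 bases, had 11, 0 and 7 expected counts and lay 2.87 ± 0.71 below Ccl4 on the log2(TPM + 1) scale (mean difference of -2.87).

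Ccl1, the ligand of the Treg chemokine receptor Ccr8, had 16.03, 4.87 and 1.87 TPM, and the 3 libraries are separated in that order. Ccr8 itself had 137, 112 and 157 TPM and did not follow that order. Cxcl10, an interferon-induced ligand of Cxcr3, had 18.4, 33.8 and 17.6 TPM, with library 2 highest. Its neighbour Cxcl9, another Cxcr3 ligand 18559 bases away, had 12, 8 and 27 expected counts, and Cxcl10 exceeded it by 4.14 ± 0.47 on the log2(TPM + 1) scale. Cxcr3 had 289.9 TPM in library 1, 204 TPM in library 2 and 251 TPM in library 3.

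Ccl25, the thymus and gut ligand of Ccr9, met the detection rule with 14.8, 8.99 and 9.43 TPM, but few of these reads fell on transcripts that can make the protein. Coding transcripts took 11.3% ± 6.68 of the TPM. The 7 transcripts starting at chr8:4325210-4325241, head to head with Elavl1 and sharing 204 exon bases with it on the other strand, summed to 12.5, 7.99 and 7.66 TPM. The 2 transcripts starting at base 4349588 summed to 1.15, 0 and 0.88 TPM. Of these starts, the downstream one has the TATA letters before it in the promoter table, and its sequence is printed to show the contrast, on the plus strand at chr8:4349488-4349587.
Ccl25 downstream start: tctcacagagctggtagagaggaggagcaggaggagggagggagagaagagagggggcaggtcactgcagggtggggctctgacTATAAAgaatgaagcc

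The remaining chemokines stayed below 1 TPM in at least 1 library. Cxcl2, a neutrophil attractant, had 105, 0 and 65.9 expected counts, and Xcl1, which attracts cross-presenting dendritic cells, 17.9, 21 and 9. Cxcl16 had 10.8, 0 and 10 counts, Ccl2 12, 0 and 0, Ccl24 3, 12 and 6, and Cxcl1 1, 0 and 8. Ccl22 (0, 0 and 6), Ccl20 (1, 0 and 0) and Ccl17 (0 in all), ligands of Ccr4 and Ccr6, were at or near 0, while Ccr4 averaged 31.8 TPM and Ccr6 43.9 TPM.

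The suppressive ligands were unequal. Ebi3 had 68.9, 61.9 and 63.1 TPM (64.6 ± 3.74). Neither possible partner was at a similar level: Il12a had 17, 0 and 0 expected counts and Il27, which pairs with Ebi3 in interleukin 27, had 2.16, 0 and 0. Ebi3 exceeded Il12a by 5.80 ± 0.32 and Il27 by 5.99 ± 0.01 on the log2(TPM + 1) scale, with an exact sign-flip p of 0.25 for each. In M21 expected counts both partners were at 0 in libraries 2 and 3, so the pseudocount sets these sizes. With 0.1 in place of 1 they were 8.39 and 9.004. The M4 counts were 7, 0 and 2 for Il12a and 5, 0 and 1 for Il27, so both had M4 reads in library 3. Il27 shares 103 exon bases with Apobr on the other strand, which had 111, 153 and 140 expected counts. Levels of mRNA do not measure the paired proteins. The other subunits of that family, Il12b (5, 0 and 15 counts) and Il23a (3, 1 and 1), were also low, and their difference had no fixed sign across libraries.

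Il10 had 8.59, 2.78 and 17.1 TPM (9.49 ± 7.20), library 3 highest and library 2 lowest. Ebi3 exceeded it by 2.92 ± 1.12 on the log2(TPM + 1) scale. Its relatives Il22 and Il24, the latter 132391 bases away, had 0 counts in every library. Ifng, the main macrophage-activating cytokine of type 1 T cells, had 11.3, 6.25 and 14.3 TPM, in the same order of libraries as Il10. Ifng and Il10 were not apart: their difference was 0.36, 0.94 and -0.24 in libraries 1 to 3. Ifnb1, a type I interferon, had 4, 0 and 4 counts.

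Of the helper cell cytokines, Il4, the type 2 switch factor, was detected with 1.31, 8.11 and 3.81 TPM. The other type 2 genes of its cluster were not. Il13, 12655 bases away, had 0 counts in all libraries, which with the limit of 3 counts allows up to 0.118, 0.134 and 0.108 TPM, and Il5 had 5, 0 and 1 counts. Il3, Il9 and the epithelial cytokine gene Tslp had 0 expected counts, but the M4 tables gave Tslp 0, 0 and 2. Il17f had 5.48, 12.3 and 18.7 expected counts and its neighbour Il17a 2, 0 and 0, a mean difference of -0.76 ± 0.31 (Il17a minus Il17f, log2(TPM + 1)). This size was not stable: it was -2.76 with a pseudocount of 0.1 and -0.19 in M4 counts per kilobase.

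The T cell growth factor Il2 had 19.4, 44.4 and 26.5 expected counts, a mean of 1.30 TPM, and missed the rule in library 1. Its receptor chains Il2ra, Il2rb and Il2rg averaged 248, 919.7 and 1314 TPM. Il15, which uses Il2rb and Il2rg, had 12, 16 and 29 counts, and Il21, from activated helper cells, 27, 0 and 20. Il2 and Il15 were not apart.

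In the interleukin 6 family, 3 of 4 genes were detected. Osm had 19.96, 31.9 and 22.8 TPM, Clcf1 22.3, 28.1 and 22.8 TPM, and Lif 2.27, 3.56 and 2.84 TPM, each highest in library 2. Lif, which lies 16531 bases from Osm, differed from it by -2.72 ± 0.12 on the log2(TPM + 1) scale. Il6 had 41, 1 and 12 expected counts. The signal chain Il6st averaged 129 TPM, while Lifr (0.41 TPM), Osmr (0.58 TPM) and Cntfr (0.087 TPM), the further receptor chains of these 3 ligands, were not detected.

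Of the interleukin 1 family, Il18 was the 1 detected member, with 4.15, 3.69 and 3.86 TPM (3.90 ± 0.23). Il1b had 0 counts in all libraries, and Il18 exceeded it by 2.29 ± 0.07 on the log2(TPM + 1) scale, a value that the pseudocount sets and that became 5.32 with a pseudocount of 0.1. Il33, an alarmin held in the nucleus, had 2, 3 and 3 counts. Il1a had 1.13, 0 and 6.62 expected counts, but the M4 tables gave it 14, 3 and 10. It shares 222 exon bases with Gm14023 on the other strand.

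Receptor chains were also read for 15 of the detected ligands. All mapped chains were detected for 10 of them: the pairs included Ccl1 and Ccr8, Cxcl10 and Cxcr3, Il10 with Il10ra (83.9 TPM) and Il10rb (140.1 TPM), Ifng with Ifngr1 (392 TPM) and Ifngr2 (31.6 TPM), Mif with Cd74 (386 TPM), and Il16 with Cd4 (379.6 ± 10.3 TPM). The 5 without a full set were Csf1 (Csf1r at 0.28 TPM), Flt3l (Flt3 at 0.18 TPM), Lif, Osm and Clcf1. These are descriptions of mRNA levels, with no test.

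The libraries were compared by a chi-square test of the scaled expected counts against Poisson counting noise, over the 18253 genes whose mean count reached 10. Of 26 ligands tested 25 differed at an adjusted p of 0.05; the exception was Il18 (adjusted p = 0.709). At this depth the same was true of 77.0% of all genes tested, so the count is not particular to ligands. When the highest library also had to reach 2 times the lowest, 14 ligands were called, against 27.2% of all genes. When the common spread of all genes among these libraries (a coefficient of variation of 0.396) was allowed for, 0 ligands were called by the chi-square test, against 2.37% of all genes. Before adjustment 8 ligands had a chi-square p under 0.05. The share of all genes under that unadjusted rule is not given here, so the 8 cannot be set against the 2.37%. The ligands' median coefficient of variation was 25.1% over the detected ones, and 11.7% over all detected genes.

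Among the detected ligands, the highest ratios between libraries were those of Ccl1 (7.94-fold between highest and lowest library in scaled counts, chi-square adjusted p = 8.81e-31), Il10 (6.61-fold, 5.36e-69), Il4 (6.08-fold, 5.38e-13), Ccl4 (3.56-fold, 1.83e-35) and Ifng (2.45-fold, 4.72e-19). Among the called ligands below the detection rule, Cxcl2, Il21 and Spp1 had 0 counts in library 2, Il6 had 1 count there, and Il17f differed 3.76-fold. The detected ligands did not share a highest library. Ccl1 and Ccl4 were highest in library 1, Il4 in library 2, Il10 and Ifng in library 3. Of the 25 differing ligands, 9 were highest in library 1, 9 in library 2 and 7 in library 3. Mif, Il16 and Ebi3 also passed, with ratios of 1.09, 1.02 and 1.11. Without library 1, 5 calls were lost in the chi-square test: Ccl4 (adjusted p = 0.722), Ccl25 (0.0708), Lif (0.836), Il15 (0.201) and Il17f (0.468).

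**Figure D4:**
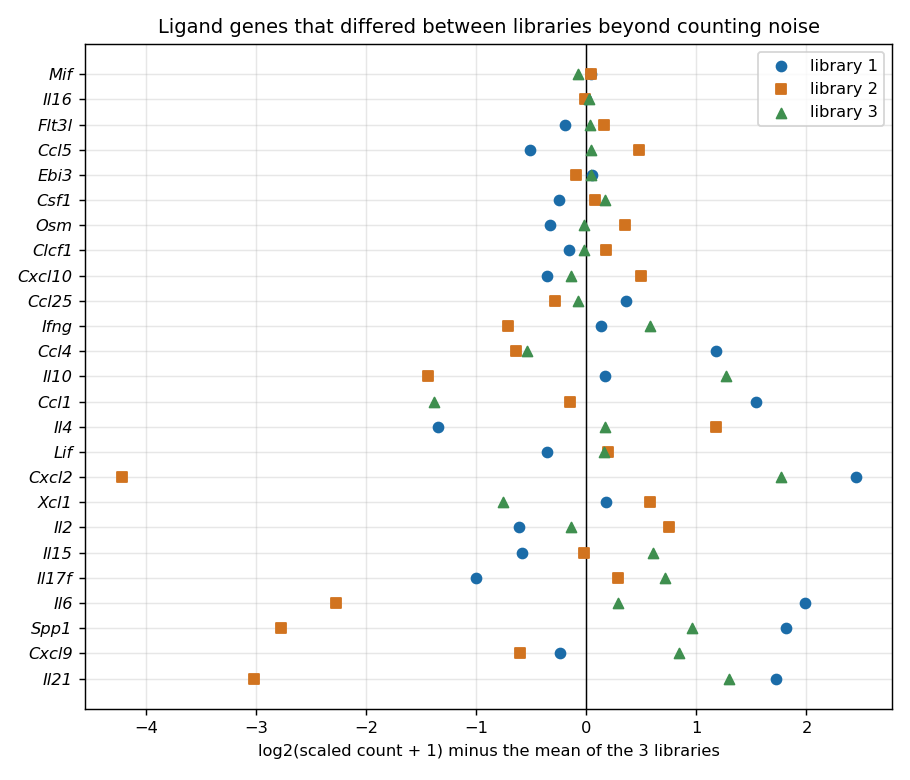
Difference of log2(scaled count + 1) from the mean of the 3 libraries for the ligand genes called different between libraries, 1 point per library. Ccl1 and Ccl4 lie highest in library 1, Il4 in library 2 and Il10 in library 3, and Cxcl2, Il21 and Spp1 fall farthest in library 2, where they had 0 counts.

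Library 2 had the most ligands at 0. Of the 27 ligands with reads that were not detected, 17 had 0 counts in library 2, 1 in library 1 and 5 in library 3, and 11 were at 0 in library 2 alone. These 11 were Cxcl2, Spp1, Ccl3, Csf2, Il21, Ifnb1, Il12b, Cxcl16, Cxcl1, Il5 and Il1a. The pattern was not restricted to ligands: among 6798 coding genes with a mean count of 1 to 30, 13.1%, 41.4% and 16.02% were at 0 in libraries 1 to 3, and among the 22 ligands in that band 1, 13 and 2. Library 2 also had the lowest depth and the lowest sum of myeloid markers, whose part in the result was not tested.

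The M4 counts give a check from a second annotation. They listed 52 of the 53 ligands, with Flt3l missing. The M4 count was a median of 36.1% of the M21 count over 25 ligands, and 6 ligands had more M4 than M21 counts, as did 8.27% of all genes. Of the 25 ligands called above, 13 were called from M4 counts, 6 were tested and not called (Mif, Ebi3, Clcf1, Lif, Il15 and Xcl1) and 6 were not tested. Of those 6, Flt3l is not listed in the M4 tables, and Cxcl9, Il6, Il17f, Il21 and Spp1 were too low. The calls on Ccl1, Ccl4, Ccl5, Cxcl10, Ifng, Il4, Il10 and Osm were among the 13.

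**Figure D5:**
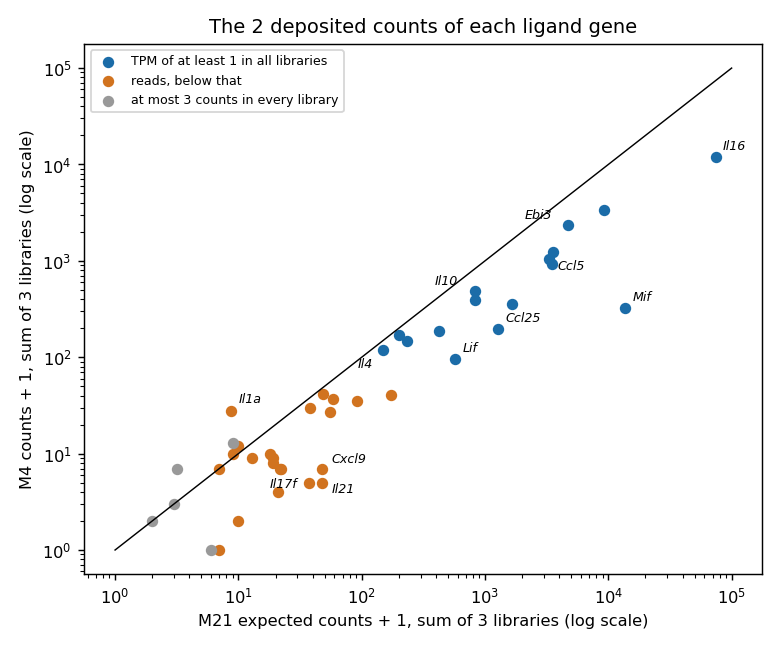
Whole-number M4 counts against M21 expected counts for ligand genes with values in both and M21 counts above 0. Each was summed over the 3 libraries with 1 added, on log axes with the line of equality. The 9 ligands at 0 in M21, among them Tslp with 2 M4 counts, are not drawn. Mif lies farthest below the line among the abundant genes, at 2.34%, and Il1a above it.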

How the data were processed

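Polyadenylated RNA of 3 libraries in 1 group was quantified by the authors on assembly mm10, per the labels. The deposited gene tables hold expected counts, TPM, FPKM and TPM bounds (treated as a score, their level not being stated), per the file headers. The deposited transcript tables give expected counts, TPM and the percent of a gene's TPM taken by each transcript, per the file headers. The deposited tables on annotation M4 hold counts in whole numbers. Names for the aligner and the counting program are not stated in the labels used.

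The 53 genes, the lists and the pairs were chosen with earlier results of these data known. Every ligand may be named. From the lists of other cytokines, processing factors and decay factors, the 6 highest and 2 lowest by mean TPM were named, together with receptors of the ligands, leading transcripts and all markers. Some genes that this rule covers are not reported here. Symbols came from the M21 annotation, which held all 55536 identifiers; 22195 of 22457 M4 identifiers matched.

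Expected counts were rounded and scaled with TMM (edgeR 4.0.16, R 4.3.3). A chi-square test against Poisson noise covered every gene whose mean count reached 10, with Benjamini-Hochberg adjustment at 0.05. It was also run on simulated counts drawn with Poisson noise, the noise that the test assumes. That run cannot show how the calls hold where libraries spread more widely. The test compares libraries, not conditions, and the spread between libraries labelled technical says nothing about mice. A quasi-likelihood contrast needs a second group and was not made. Pairs were compared on log2(TPM + 1), with a pseudocount of 1. This understates differences from genes at or near 0. They were called apart where sign, ranges and the authors' TPM bounds all separated the genes. Rows that name no gene took 0.170%, 0.170% and 0.218% of expected counts and were left out. The total M4 counts were 9718021, 8945992 and 9904722. Limits from 0 counts cover counting error only. Other steps used Python 3.11.15, pandas 2.3.3 and scipy 1.17.1. DESeq2 1.42.0 supplied alternative size factors.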

Additional observations from a re-analysis of the deposited data

How the results depend on the processing

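The count of 17 detected ligands stayed within 1.5 times under every alternative run (TPM minimum, posterior mean TPM, FPKM, M4 counts, mean rule, leaving out a library), between 15 and 20. The 9 ligands at 0 became 14 when up to 3 counts per library were allowed and 10 in M4 counts. They ranged from 9 to 14 when a library was left out. The 25 ligands differing between libraries became 16 with a minimum mean count of 50, 13 in M4 counts and 0 with the common dispersion of all genes, and ranged from 18 to 20 when a library was left out. Without library 2 the calls on Ebi3, Il2, Il21, Spp1 and Xcl1 were lost, and without library 3 those on Mif, Il16, Cxcl9, Il15 and Xcl1. The 13 of 20 pairs apart ranged from 13 to 14 when a library was left out. They became 3 when both genes had to reach 1 TPM, since fewer pairs are then tested. The pairs left were Ebi3 with Il10, Lif with Osm and Mif with Il16, all apart, and Ifng with Il10, not apart. Every other pair apart had at least 1 gene below that rule. With a pseudocount of 0.1, differences from genes near 0 grew, as for Csf1 minus Csf2 (5.16 to 7.21), Csf1 minus Il34 (5.27 to 7.25), Ccl3 minus Ccl4 (-2.87 to -4.67) and Cxcl10 minus Cxcl9 (4.14 to 5.77). Mif minus Il16 reversed to -2.42 without length correction and to -2.61 in M4 counts per kilobase; the cause was not tested. No paired analysis was possible because the 3 libraries form 1 group. Depth limits the 27 ligands with fewer than 10 counts on average, which were not tested.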

Other observations

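Few of the listed cytokine genes outside the 53 were detected, but they included the most abundant of all. Of 54 other cytokine and chemokine genes, 6 were detected, against 47.7% of all coding genes. Another 10 had 0 counts in every library, against 11.3% of coding genes. Ltb, the membrane-anchored partner of lymphotoxin alpha, averaged 1783 TPM, above every gene of the set, and Lta averaged 134 TPM. Tgfb1, the transforming growth factor that Tregs use and respond to, averaged 117 TPM with 113, 119 and 119.8 TPM in libraries 1 to 3. Tnf had 36.4, 35.6 and 45.5 TPM, Ccl27a averaged 7.50 TPM and Il1rn, the interleukin 1 receptor antagonist, 4.41 TPM.

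Transcripts of most listed processing and decoy factors were present. Of 18 such factors, 14 were detected, against 47.7% of all coding genes. Pycard and Casp1, parts of the inflammasome that matures interleukin 1 beta and interleukin 18, averaged 234 and 109 TPM, and Gsdmd, which opens the pore for their release, 175 TPM. The sensor gene Nlrp3 was near 0 at 0.023 TPM. Sigirr, an inhibitory receptor of the family, averaged 186 TPM, Casp8 181 TPM and the shedding protease gene Adam10 80.8 TPM. Ackr2, a chemokine scavenger receptor, averaged 0.050 TPM.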
